A study of Saccharomyces cerevisiae with 8 samples.

Results

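The shortest exposure of the series compared haploid yeast cells of mating type a that had been given Iztli peptide 1 (IP-1) for 3.5 min with untreated cells. IP-1 is an antimicrobial peptide built by design to include the alpha pheromone, by which alpha cells call a cells to mate. The cells were Saccharomyces cerevisiae BY4741 MATa, a strain whose standard genotype carries deletions in HIS3, LEU2, MET17 and URA3. The LEU2, MET17 and HIS3 features gave signal well above background in both cultures. Both cultures were grown in rich medium (YPD) to an optical density of 0.4 at 600 nm, and 1 of them received 10 µM IP-1. Its RNA was labelled with Cy5 and that of the untreated culture with Cy3, and both were hybridised to the same array, on which yeast open reading frames were spotted. The 3.5 min comparison holds 2 of the 8 samples of the series, which are the 2 spots of each gene on that array. Further culture pairs, of the same strain and peptide dose, were harvested at 7, 15 and 30 min, each on an array of its own. All yeast features were taken, leaving out the empty spots and 32 features named after Arabidopsis genes, and 6152 of 6336 exceeded the local background on all 4 arrays and were described.

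In budding yeast, alpha pheromone binds the receptor Ste2 on a cells, which frees the G protein beta and gamma subunits. These recruit the scaffold Ste5 and a MAP kinase cascade that ends in Fus3 and Kss1 and releases the transcription factor Ste12 from its repressors Dig1 and Dig2. Target genes of Ste12 encode agglutinins, pheromone components, fusion proteins and regulators that switch the signal off again. All ratios here are log2 of IP-1 over untreated intensity, so that 0 means equal, 1 means 2-fold higher and -1 means 2-fold lower with the peptide.

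The 2 spots of a gene measured the same labelled RNA, so this exposure is 1 sample and its ratios carry no test. Differences between duplicate spots had an SD of 0.12 per spot, against an SD of 0.25 over all features, and the spots correlated at 0.778 across features. Duplicate spots lie side by side, so this SD does not include differences between regions of the array. Of all features, 95.4% lay within 0.5 of 0. The median signal was 3.74 times the local background in Cy3 and 2.50 times in Cy5, and no spot was saturated. Because the peptide RNA carried Cy5 on every array, a dye effect and an effect of the peptide cannot be told apart for any single gene. With 1 culture of each kind per array, exposure, culture and array cannot be told apart either.

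Both spots reached a ratio of at least 1 for 19 genes, which is 0.309% of the features, and both lay at -1 or below for 2 genes, or 0.0325%. At a limit of 0.5, corresponding to 1.41-fold, 108 genes were higher on both spots and 108 were lower, 1.76% in each direction. The count of lower genes depended on the centring. With median centring in place of loess the numbers past 0.5 were 83 higher and 186 lower, and in the deposited ratios, which are not centred, they were 33 and 529. Past 1 they were 14 and 5 with median centring, and 6 and 22 in the deposited ratios, whose median over all tested features is -0.15. Of the 21 genes past 1, 8 stayed past it in the deposited ratios, 16 with median centring, 17 with no background correction, 18 with print-tip loess and 21 with plain background subtraction. Of these 21 genes, 20 had signals above the limit of the empty spots in both channels on both spots.

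**Figure D1:**
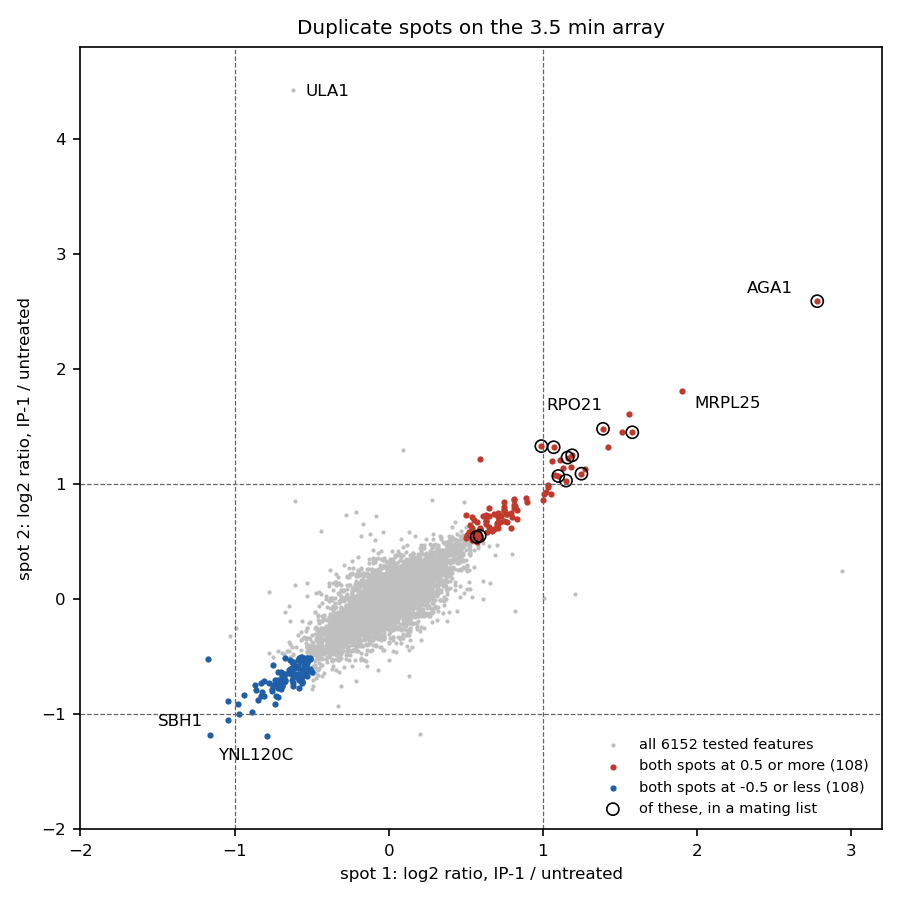
Log2 ratios of IP-1 over untreated on spot 1 (horizontal) and spot 2 (vertical) of each of the 6152 features on the 3.5 min array. Red and blue points had both spots past 0.5 in 1 direction (108 each), circles mark members of the mating gene lists, dashed lines stand at -1 and 1, and AGA1 lies apart at 2.78 and 2.59 while the spots of ULA1 disagree.

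The highest ratio belonged to AGA1, which encodes the anchor subunit of a-agglutinin, the adhesin by which a cells stick to their partner. Its untreated spots read 214 and 260, its IP-1 spots 1100 and 1159, and the ratios were 2.78 and 2.59 (mean 2.68, 6.43-fold). AGA2, the binding subunit of a-agglutinin, had untreated spots of 765 and 678 and IP-1 spots of 1549 and 1447, with ratios of 1.39 and 1.48. In both genes the 2 IP-1 spots lay above both untreated spots. FIG2, an adhesin of the mating cell surface, reached 0.99 and 1.33, so that only spot 2 passed 1. SAG1, the partner agglutinin made by alpha cells, had ratios of -0.33 and 0.13, and its IP-1 spots did not exceed the limit of the empty spots. Of the 4 adhesin genes 3 were past 0.5 and none was below -0.5, with a median of 1.30 against 0.00 over all features.

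The pheromone that a cells send out is a-factor, a lipid-modified peptide encoded by 2 genes. MFA1 had raw intensities of 1313 and 1391 without the peptide and 3085 and 3003 with it, and ratios of 1.58 and 1.45. MFA2 had 925 and 956 against 1522 and 1553, and ratios of 1.10 and 1.07. The genes for making and exporting a-factor were much closer to 0. STE6, the a-factor exporter, stood highest among them at 0.53 and 0.40, and the processing enzymes ran from -0.36 for the protease gene RCE1 to 0.17 for the protease genes STE24 and STE23. The farnesyltransferase genes RAM1 and RAM2 had means of -0.17 and 0.07. With 2 of 10 genes past 0.5, both of them structural genes for the pheromone, this list had a median of 0.13.

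Among the genes that sense pheromone and limit the response, BAR1 and SST2 stood apart. BAR1 encodes the secreted protease that destroys alpha pheromone, and its spots read 554 and 587 untreated and 959 and 1062 with IP-1, giving ratios of 1.16 and 1.23. SST2 encodes the regulator that speeds GTP hydrolysis on Gpa1, and its ratios were 1.07 and 1.32. The receptor gene STE2 had 0.40 and 0.53, just short of the lower limit on spot 1. MSG5, a phosphatase acting on the MAP kinases, had a mean of 0.35, AFR1, which acts in receptor desensitisation, 0.32, and the casein kinase genes YCK1 and YCK2, 0.30 and 0.38. Although only 2 of the 11 genes were past 0.5, 10 lay above 0 and the median was 0.32.

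The signalling components between receptor and nucleus showed small ratios. GPA1, the G protein alpha subunit, had 0.52 and 0.44, and STE5, the scaffold, had 0.41 and 0.52. CDC24, the exchange factor that activates Cdc42 at the site of polarised growth, was the only member of 15 past 0.5 on both spots, with 0.59 and 0.55. FUS3, the MAP kinase most specific to mating, had discordant spots of 0.28 and -0.12, and KSS1 had -0.20 and -0.11. The beta subunit gene STE4 stood at -0.10, the gamma subunit gene STE18 at 0.20, and the kinase genes STE20, STE11 and STE7 at -0.27, 0.10 and -0.12. FAR1, which arrests the cell cycle and anchors polarity, had a mean of 0.21. The median of the 15 genes was 0.08, with 8 above 0 and 7 below.

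KAR4 was the exception among the transcription factors. It encodes a factor that assists Ste12 at late mating genes, and its raw intensities were 128 and 122 untreated and 241 and 220 with IP-1, with ratios of 1.15 and 1.03. The untreated spots lay close to their local background of 76.3 and 77.0, and spot 2 in Cy3 did not exceed the limit of the empty spots, so the size of the ratio depends on the background correction. With plain subtraction of the background it came to 1.93. STE12 itself had 0.02 and 0.01, and its repressor genes DIG1 and DIG2 had means of 0.17 and -0.21. Of the 15 genes in this list only KAR4 was past 0.5, and the median was -0.04. The list also holds the silencing genes SIR1 to SIR4 and mating-type entries such as MATALPHA1 and HMRA1. Of the 15 entries 4 carry several names.

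The fusion genes were split in the same manner. FUS1, a membrane protein of the cell fusion site, had 308 and 353 untreated and 570 and 599 with IP-1, with ratios of 1.25 and 1.09. PRM1, which acts in plasma membrane fusion, had 174 and 162 against 327 and 323, with ratios of 1.19 and 1.25. FUS2, an activator of the fusion machinery, reached 0.41 and 0.63, and FIG1, part of the low-affinity calcium influx of mating cells, 0.28 and 0.44. The other members, among them RVS161 at 0.16, SPA2 at 0.04 and BNI1 at 0.14, lay near 0. The list of 11 had 2 genes past 0.5 and a median of 0.16.

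None of 12 tested genes of nuclear fusion (karyogamy) was past 0.5 in either direction, which is near the background share of 1.76%, and they ran from -0.44 for BIM1, a microtubule-binding protein, to 0.31 for KAR2, the Hsp70 of the endoplasmic reticulum. KAR3 and CIK1, the kinesin motor and its partner, had means of 0.10 and -0.10, and PRM3, a nuclear envelope protein of karyogamy, had -0.28. Of 7 other genes named for pheromone regulation of a membrane protein, PRM7 alone was past 0.5, with 0.57 and 0.54. PRM4 had 0.39, PRM6 0.03 and PRM10 -0.48, and the median was 0.00. Of 19 polarity genes none was past 0.5 in either direction, the highest being MSB1, at 0.44, and the median was 0.04.

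The labelled mating type was set beside 2 sets of marker genes. All 7 a-specific genes exceeded the limit of the empty spots in both channels on both spots, and all 7 had ratios above 0, from 0.18 for ASG7 to 1.51 for MFA1 (median 1.08). Of these, 4 were past 0.5 on both spots. The 6 alpha-specific genes ran from -0.24 for STE3, the receptor for a-factor, to 0.24 for AFB1, the a-factor barrier gene, with none past 0.5 and a median of -0.15. Signals at alpha-specific features were above zero: MF(ALPHA)2, a gene for alpha pheromone, read 806 and 945 untreated and 701 and 788 with IP-1. Of the 5 marker genes MF(ALPHA)1, MF(ALPHA)2, STE3, SAG1 and AFB1, 4 exceeded the limit of the empty spots in both channels on both spots. So did 4944 of the 6152 tested features, so passing this limit does not tell a cells from alpha cells. Over all features 1.76% were past 0.5 in each direction. Features of the genes that carry deletions in BY4741 also gave signal, well above background for LEU2, MET17 and HIS3. Whether this departs from the genotype of the labelled strain was not tested. LEU2 read 41823 and 41647 untreated and 32010 and 32547 with IP-1, MET17 read 669 and 703 against 507 and 515, and HIS3 read 360 and 410 untreated. URA3 read 127 and 125 against 128 and 150. Their ratios lay between -0.22 and -0.02. Signal at a spotted open reading frame does not by itself show that the gene was transcribed, and what these features bound was not tested.

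**Figure D2:**
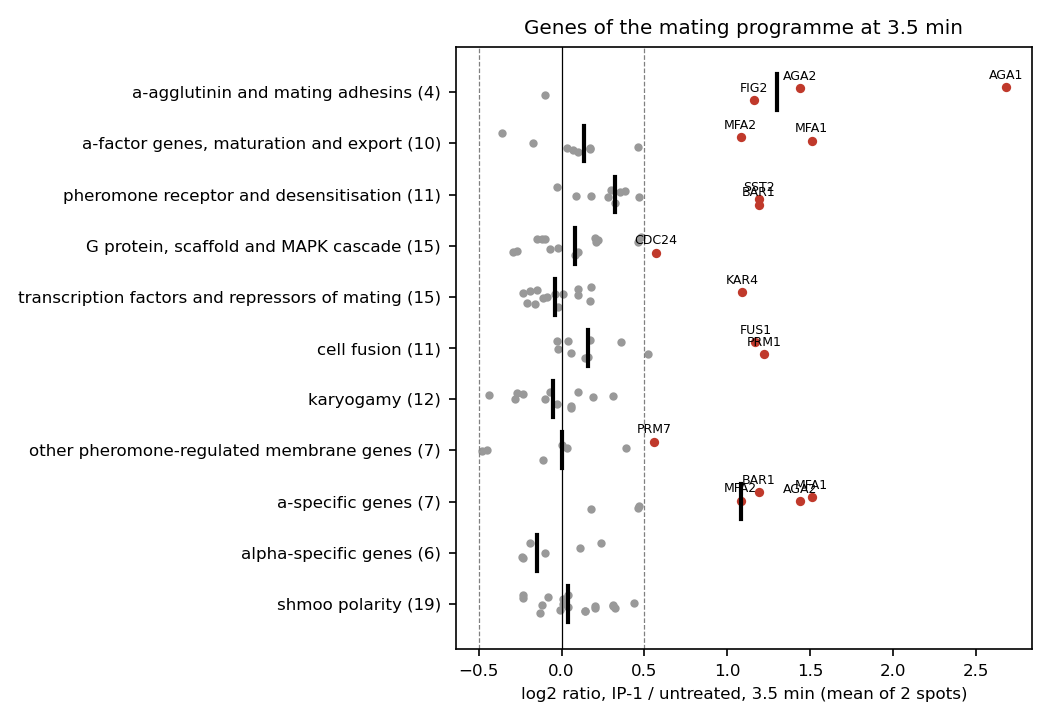
Log2 ratio of IP-1 over untreated at 3.5 min (mean of 2 spots) for each tested gene of 11 mating lists, whose sizes stand in brackets. Red points are genes with both spots past 0.5, black bars are list medians, and dashed lines stand at -0.5 and 0.5. The adhesin and a-specific lists have medians of 1.30 and 1.08, and the karyogamy and polarity lists hold no red point.

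Across the mating lists together, which hold 105 different tested genes, 12 genes were past 0.5 higher, none lower, and 9 were past 1. Over all features the shares were 1.76% past 0.5 in each direction and 0.309% past 1, so that the absence of lower genes is near the background. It also depends on the makeup of the lists, which were chosen with earlier results of these data known. PTP3, a phosphatase that acts on MAP kinases of the mating and osmotic pathways, is in none of them and had -0.75. The median of the 105 was 0.07 and 64 lay above 0. Thus 9 of the 19 genes past 1 belonged to these lists, and 10 did not. Counts are given without a test, since the 3.5 min array is 1 sample.

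The other 10 genes were in none of the mating lists. MRPL25, a subunit of the mitochondrial ribosome, had raw intensities of 191 and 212 untreated and 550 and 549 with IP-1, with ratios of 1.90 and 1.81. It was the only one of 75 mitochondrial ribosomal proteins past 0.5, and their median was -0.02. RPO21, which encodes the catalytic core subunit Rpb1 of RNA polymerase II, had 511 and 494 against 1142 and 1150, with ratios of 1.56 and 1.61. It was likewise the only one of 29 nuclear RNA polymerase subunits past 0.5, where the median was -0.02.

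DAN1, a cell wall mannoprotein of anaerobic cells, had 246 and 286 untreated and 556 and 615 with IP-1, with ratios of 1.51 and 1.45. SUT1, a regulator of the uptake of sterols, followed it in the same list at 0.89 and 0.88, while PDR11, a sterol transporter, had a mean of -0.55. FIT2, a wall mannoprotein that helps to retain iron, had 911 and 1036 against 1611 and 1793, with ratios of 1.18 and 1.15. FIT1, a related mannoprotein, had 0.76 and ISU1, a scaffold for iron-sulfur clusters, 0.56. These were the only 3 of 30 iron genes past 0.5, against 1.76% of all tested features in each direction, and the median of the iron list was 0.02. In the deposited ratios 1 iron gene was higher past 0.5 and 3 were lower.

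TAX4, which takes part in control of phosphatidylinositol bisphosphate, had ratios of 1.11 and 1.21, and YPS1, an aspartic protease of the cell surface, had 1.08 on each spot. YCL041C, annotated in the deposited table as a reading frame that overlaps the 5′ end of PDI1, had 1.13 and 1.14, whereas PDI1 had a mean of 0.03. YMR304C-A is annotated only as a hypothetical protein and had 1.42 and 1.32. The last 2 genes, YIL080W (1.27 and 1.13) and YGR109W-A (1.06 and 1.20), are features of the Ty3 retrotransposon whose entries carry the names of several near-identical elements, so a signal cannot be assigned to 1 copy.

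**Figure D3:**
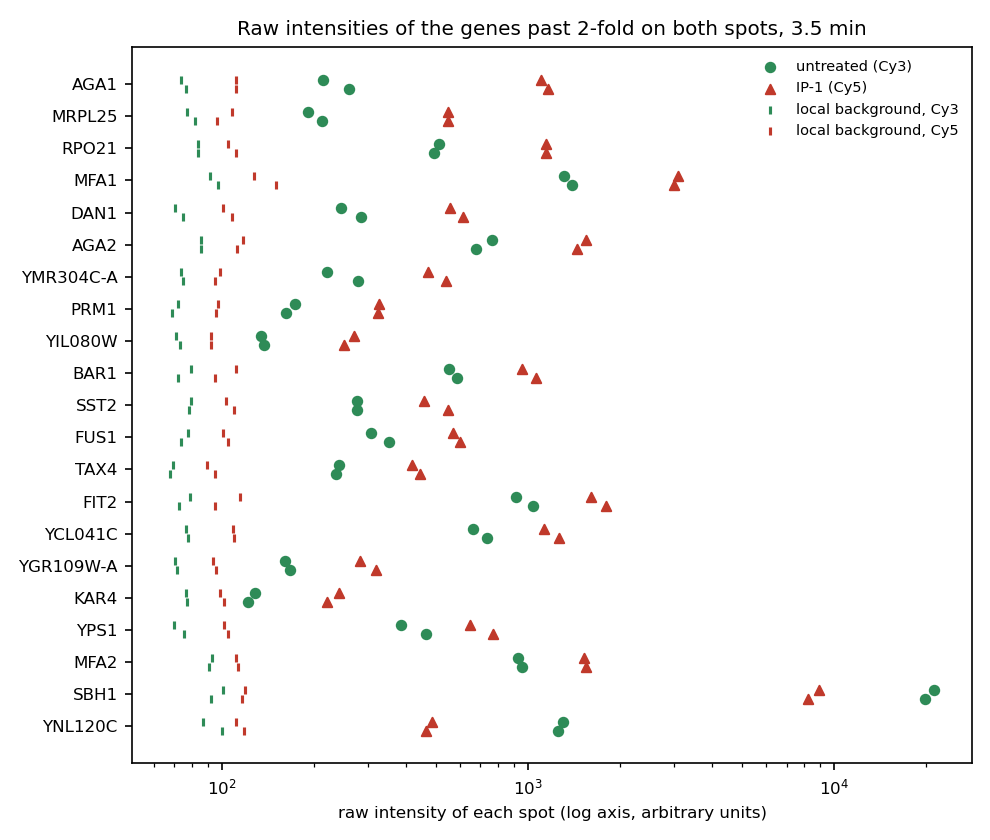
Raw intensity of each spot on a log axis for the 21 genes with both spots past 2-fold at 3.5 min, ordered by ratio. Circles are untreated (Cy3), triangles IP-1 (Cy5) and ticks the local background of each spot. In all 19 genes of higher ratio the 2 triangles lie to the right of the 2 circles, and in SBH1 and YNL120C to the left.

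Only SBH1 and YNL120C were below -1 on both spots. SBH1, the deposited table's name for the feature with locus tag YER087C-A, which the R64 table lists as a synonym of SBH1, encodes the beta subunit of the Sec61 channel, through which proteins enter the endoplasmic reticulum. Its spots read 21189 and 19806 untreated and 8910 and 8222 with IP-1, and its ratios were -1.04 and -1.05. SEC61, the pore subunit of the same channel, lay on the other side of 0 with 0.63 and 0.72, and the median of 16 translocon and signal recognition genes was 0.00. YNL120C is annotated in the deposited table as a dubious reading frame that overlaps NCS2, and read 1305 and 1255 untreated against 486 and 466, with ratios of -1.16 and -1.18. Next below the limit came YGR228W, another dubious reading frame, at -0.79 and -1.19, and PLB1, a phospholipase B of the cell surface, with a mean of -0.98.

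Of the genes lower by at least 0.5, none was in a mating list and 26 were in any list. Mating lists hold 1.71% of the tested features and all lists together 22.2%, so both counts are near the background. Lipid genes contributed 3 of 41, namely PLB1, the fatty acid elongase gene ELO1 at -0.81 and the sphingolipid synthesis gene TSC10 at -0.71, while CHO1, the phosphatidylserine synthase gene, stood at 0.56. Hexose transport contributed 3 of 24: HXT2 at -0.75, HXT4 at -0.57 and HXT12 at -0.53. Of these 24 entries 9 carry several names, so members of the list may not be separate measurements. Over all features 1.76% were lower by at least 0.5. A second feature for HXT2, marked with the suffix -r in the deposited table, had 0.14, so that gene's value depends on the feature. Drug efflux contributed 2 of 21, QDR1 at -0.69 and TPO2 at -0.66, and 17 of the 21 lay below 0 (median -0.11).

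Further lower genes came 1 or 2 to a list. RSC9, a subunit of the RSC chromatin remodeller, had -0.89 and -0.98, and SWP82, a SWI/SNF subunit, had a mean of -0.56, where the 25 remodeller genes had a median of -0.02. SSN8, the cyclin of the Mediator kinase, had -0.65. PTP3, a phosphatase that acts on MAP kinases of the mating and osmotic pathways, had -0.75 on each spot. CSE1, a nuclear export karyopherin, had -0.69, RPT5, a proteasome ATPase, -0.68, MET30, a ubiquitin ligase subunit that restrains sulfur genes, -0.53, and GAL7, an enzyme of galactose use, -0.65. PFK27, which makes the glycolytic activator fructose 2,6-bisphosphate, had -0.94 and -0.83.

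Outside the lists, the lowest genes after those named were CTO1 (-0.96), FEX2 (-0.95, an entry with several names), YGL055W-R (-0.87), YJR124C (-0.84), BIO4 (-0.83), ARP1 (-0.83), CST26 (-0.83) and VID27 (-0.81). BIO4 is an enzyme of biotin synthesis, and ARP1 belongs to the dynactin complex. YGL055W-R is a feature with the suffix -r for the fatty acid desaturase gene OLE1, whose other feature had -0.25. Over 83 such pairs of features the correlation of ratios was 0.507, the median absolute difference 0.14, and 10 pairs differed by more than 0.5.

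Wall and surface genes held members on both sides of 0. Beside YPS1, the structural wall protein gene SED1 had 1.03 and 0.99, CCW12, another wall mannoprotein, had 0.60, and SCW10, a glucanase-like wall protein, 0.57. GAS1, a glucanosyltransferase that elongates wall glucan, had -0.70. These are 4 higher and 1 lower of 37, with a median of 0.10. The share of all tested features past 0.5 was 1.76% in each direction. In the deposited ratios 2 of the 37 were higher and 3 lower. CHS1, the chitin synthase that repairs the wall after division, had 0.81 and 0.87 and was the only one of 16 chitin genes past 0.5. DSE2, a glucanase-like protein of daughter cell separation, had -0.68.

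Among the cell cycle genes PCL2, a G1 cyclin of the kinase Pho85, had 0.81 and 0.79, and SWE1, the kinase that restrains entry into mitosis, had -0.63 and -0.42. The G1 cyclin genes CLN1, CLN2 and CLN3 had means of 0.17, -0.16 and 0.06. The median of 17 G1 genes was 0.02, that of 19 B-type cyclin and mitotic exit genes -0.02, and that of 11 histone genes 0.05. No histone was past 0.5, which is near the background share of 1.76% in each direction.

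Genes of protein synthesis lay slightly above 0 as a group. Of 81 features of large cytosolic ribosomal subunit proteins 72 lay above 0, with a median of 0.26, and of 55 of the small subunit 47 did, with a median of 0.22. Single members rarely passed 0.5: RPL29 at 0.71, RPL22A at 0.68, RPP1B at 0.54 and RPL42B at 0.53 in the large subunit, and RPS29B at 0.55 in the small. At the other end stood RPL37A at -0.46 and RPS22A at -0.51. Translation factors had a median of 0.14, with HYP2, the factor eIF5A, at 0.66 and STM1, which binds idle ribosomes, at 0.54. Over all tested features 3093 lay above 0 and 3059 below.

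Ribosomal protein features are bright, at a median brightness percentile of 89.8, and several of these genes are near-identical pairs that a spotted probe may not separate. The remaining 551 features of the brightest 10% had a median of -0.02, with 257 above 0. Loess centres the ratios near 0 at each brightness, so this median follows from the normalisation and cannot serve as a control for brightness. With median centring the ribosomal proteins had a median of 0.16, and 105 of 136 lay above the median of all features. In the deposited ratios their median was -0.04 against -0.15 over all features, with 88 of 136 above it, and these ratios also lack a background correction. The size of the shift, relative to 0 and to the other features, thus depended on the processing. Ribosome assembly factors had a median of -0.01, with LOC1 at 0.93, BRX1 at -0.63 and FAL1 at -0.72 as the only 3 of 89 past 0.5.

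In glycolysis 4 abundant genes of the lower part and of fermentation were past 0.5: the pyruvate kinase gene CDC19 at 0.80, the glyceraldehyde phosphate dehydrogenase gene TDH3 at 0.75, the enolase gene ENO2 at 0.69 and the pyruvate decarboxylase gene PDC1 at 0.67. The entries for TDH3 and ENO2 carry the names of several genes. PFK27, above, was the only one of 32 past 0.5 in the other direction, and the median was 0.08. Among all tested features the share past 0.5 was 1.76% in each direction. In the deposited ratios 1 gene of the list was higher past 0.5 and 2 were lower. Second features with the suffix -r had 0.71 for CDC19 and 0.43 for TDH3.

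Stress genes stayed near 0, as did most features, of which 95.4% lay within 0.5 of 0. The share past 0.5 on both spots was 1.76% in each direction, so lists with no gene past it are near the background. Of 40 general stress and carbohydrate reserve genes none was past 0.5, from YRO2 at -0.48 to HSP104, a disaggregase, at 0.42, with a median of 0.00. Of 32 genes of the osmotic stress pathway only PTP3 was past 0.5 (median 0.03). Single members were past it among 33 oxidative stress genes (the peroxiredoxin gene AHP1, 0.68) and 31 chaperone genes (SSE1, 0.55). Calcium and calcineurin genes ran from -0.32 to 0.36, ergosterol synthesis from -0.49 to 0.34 and phosphate starvation from -0.16 to 0.31, with none past 0.5. The 23 features of the mitochondrial genome ran from -0.33 to 0.24, with 18 below 0 and a median of -0.11 that was 0.02 with median centring.

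Further counts close the survey of lists. None of 37 DNA replication genes, 52 respiratory and TCA cycle genes or 19 genes of filamentous growth was past 0.5 on both spots. These counts are near the background share of 1.76% in each direction. Lower were 1 amino acid synthesis gene of 60, HIS6 at -0.59, and 1 unfolded protein response gene, HRD3 at -0.54. SEC61, above, was the only higher gene past 0.5 in the unfolded protein response list. GMC1, in the list of 21 meiosis and sporulation genes, had -0.82.

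Retrotransposon features were examined after their values had been seen, so they are given as a description only. Of 5 Ty3 features, identified by the names in the deposited table, 4 were past 0.5, from YIL082W-A at 0.25 to YIL080W at 1.20, and the median was 1.00. They share names with one another and are not independent measurements. Of 62 further features described as Ty Gag or Gag-Pol proteins, 55 lay above 0 and 16 were past 0.5, led by YDR365W-A at 0.98, YOL103W-A at 0.96 and YPR158C-C at 0.87, with a median of 0.33. All but 1 of these 62 entries carry several names. Among all tested features the share past 0.5 was 1.76% in each direction. Of 23 features of the helicases in telomeric Y′ elements, chosen in the same manner, 5 were higher and 1 was lower, led by YEL077C at 0.81, and the median was 0.01. Entries with several names made up 31 of the 108 higher genes and 7 of the 108 lower ones, against 4.47% of all tested features.

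Among genes in no list, ASA1, required for viability in the deposited table, had 1.05 and 0.91, and ERT1, a putative transcription regulator, had spots of 0.59 and 1.22. Some neighbours in locus number had like ratios: YDR154C had 0.75 and 0.80 and CPR1, a cyclophilin gene numbered next to it, 0.75 and 0.77. SCW10, numbered next to YMR304C-A, stood at 0.57. These pairs were picked after their values were seen, and strand and overlap of the probes are not known here.

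The other arrays gave values that did not enter the choice of these genes. All 19 higher genes were nearer to 0 at 7 min and at 30 min than at 3.5 min, with medians of 0.51 and 0.60, while at 15 min their median was 1.24 and 11 of the 19 were nearer to 0. As the genes were chosen for high values at 3.5 min, these differences between arrays are no test. At 7 min both spots passed 1 in 3 of them, at 15 min in 11 and at 30 min in 1, against background shares of 0.0488%, 0.439% and 0.0163% of all features. The sign was shared by all 4 arrays in 16 of the 19, and the share of all features with a shared sign is not given here.

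Individual courses differed. AGA1 had 1.65, 1.97 and 1.51 at 7, 15 and 30 min, and MRPL25 had 1.43, 1.72 and 1.01. FIT2 was nearly level with 1.03, 1.31 and 0.95 after 1.16 at 3.5 min. In contrast PRM1 had -0.08, 2.18 and 0.06, BAR1 -0.17, 1.12 and 0.40, and FUS1 -0.10, 0.68 and 0.18. MFA1 and KAR4 were higher at 15 min (1.77 and 2.00) than at 3.5 min, whereas AGA2 had 0.12, 0.59 and 0.18, all below its 1.44 at 3.5 min. YPS1 had 0.10, 0.11 and 0.71.

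**Figure D4:**
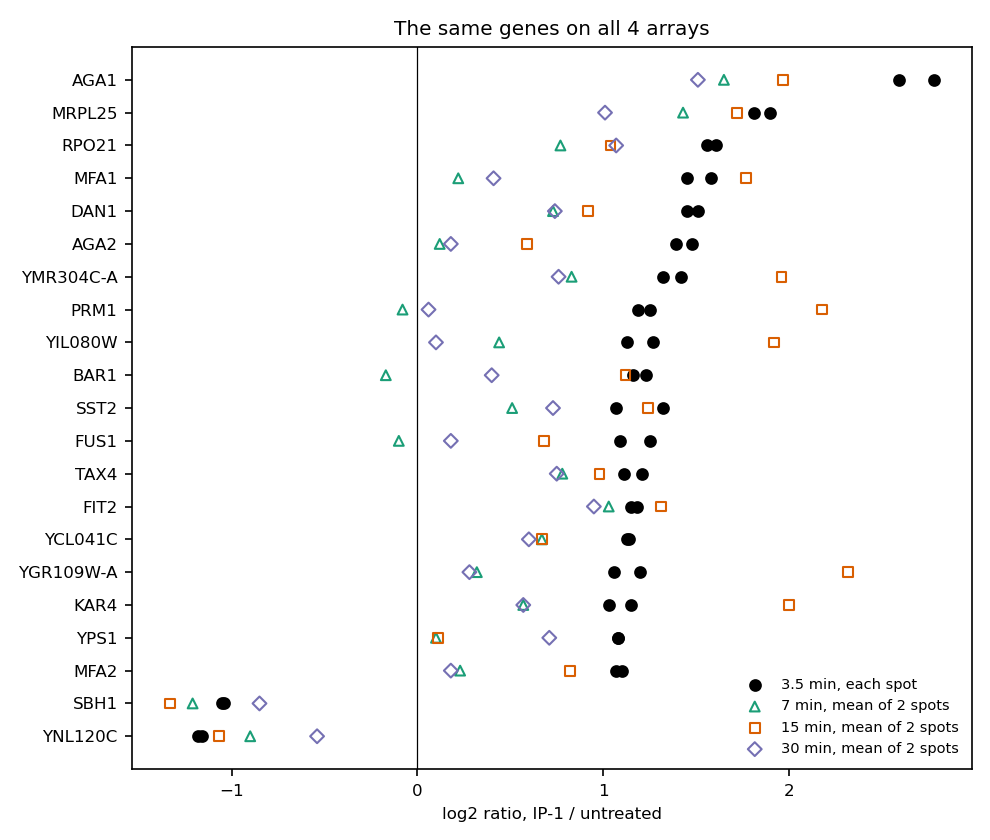
Log2 ratios of IP-1 over untreated for the 21 genes past 2-fold at 3.5 min. Black points are the 2 spots at 3.5 min, and open symbols are the means of 2 spots at 7 (triangles), 15 (squares) and 30 min (diamonds), each from 1 array. PRM1, BAR1 and FUS1 lie below 0 at 7 min, and AGA1, MRPL25 and FIT2 are above 0.9 on every array.

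A test on arrays that had no part in the choice used limma on the mean of the 7, 15 and 30 min arrays against 0, with Benjamini-Hochberg adjustment over all features. Its p-values measure the spread between 3 arrays of different exposures. The peptide RNA carried Cy5 on each of them, so a steady dye effect and a peptide effect cannot be told apart in this mean. The filter on background had used all arrays, that of 3.5 min included. It called 12 features (0.195%), 7 higher (0.114%) and 5 lower (0.0813%), and 1411 had an unadjusted p under 0.05. All 7 features called higher were among the 19 genes past 1 at 3.5 min. They were AGA1 (mean 1.71, limma adjusted p = 0.020), MRPL25 (1.39), FIT2 (1.10), RPO21 (0.96), TAX4 (0.84) and DAN1 (0.80), these 5 at an adjusted p of 0.033, and YCL041C (0.65, adjusted p = 0.044), each above 0 on 3 of 3 arrays.

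Of the 9 mating genes past 1 at 3.5 min only AGA1 was called in this test. The limma adjusted p was 0.089 for SST2, 0.13 for KAR4, 0.17 for MFA2, 0.19 for MFA1, 0.20 for AGA2, 0.29 for BAR1, and 0.35 for FUS1 and PRM1. SBH1 was called lower (mean -1.13, limma adjusted p = 0.033), as were PFK27 (-1.03, 0.020), AAC1 (-0.78, 0.033), YGR254W-R (-0.85, 0.033) and YGL088W (-0.79, 0.033). AAC1, a mitochondrial ADP/ATP carrier, had -0.58 at 3.5 min, YGR254W-R, a feature with the suffix -r for an enolase gene, had -0.43, and YGL088W stood on the other side of 0 at 0.22. YNL120C was not called (mean -0.84, limma adjusted p = 0.062).

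The number called rested on single arrays. Without the 7 min array none of the 12 was called, with limma adjusted p-values of 0.61, without the 15 min array 298 features were called, and without the 30 min array 162. All 12 were among the 298 and the 162. With no background correction none was called, with adjusted p-values for AGA1 of 0.093 and for PFK27 of 0.079, and only AGA1 and PFK27 were called in the deposited ratios.

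What set 3.5 min apart from the later arrays was tested with limma as the 3.5 min ratio minus the mean of the other 3. The single array at 3.5 min was assumed to vary like the others. No feature was called (0%), 246 (4.00%) had an unadjusted p under 0.05, and the smallest limma adjusted p was 0.061, for ULA1, an enzyme subunit of Rub1 activation, whose 2 spots disagreed at -0.62 and 4.43. Without the 15 min array 9 features were called higher at 3.5 min. These were AGA1, AGA2, FUS1, MFA1, PRM1, DPM1, ULA1, YGL088W and YOL103W-A, with differences from 0.94 to 2.11 and limma adjusted p-values from 0.00057 to 0.045. Of these, DPM1 and ULA1 had spots that differed by more than 1. Except for ULA1, which was also called in other settings, these calls appear only with the 15 min array left out. On that array MFA1 and PRM1 exceeded their 3.5 min values. All these calls rest on the spread assumed for the single 3.5 min array.

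Larger groups also had their own courses. The ribosomal proteins had medians of 0.05 at 7 min, 0.37 at 15 min and -0.10 at 30 min, with 86, 121 and 33 of 136 above 0 against 119 at 3.5 min. The a-specific genes had medians of 0.13, 0.82 and 0.28 after 1.08 at 3.5 min. Ty3 features had 0.44, 1.42 and 0.29 and the other Ty features -0.05, 0.19 and 0.01, and of the 62 other Ty features 56 were higher at 3.5 min than at 7 min, 49 than at 15 min and 57 than at 30 min. Over all features 50.7%, 48.9% and 48.8% were, and the Ty features had been picked after their 3.5 min values were seen. Across all features the 3.5 min ratios correlated at 0.499 with those at 7 min, 0.57 at 15 min and 0.404 at 30 min. These correlations are a description, as all arrays share probes and the direction of the dyes.

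**Figure D5:**
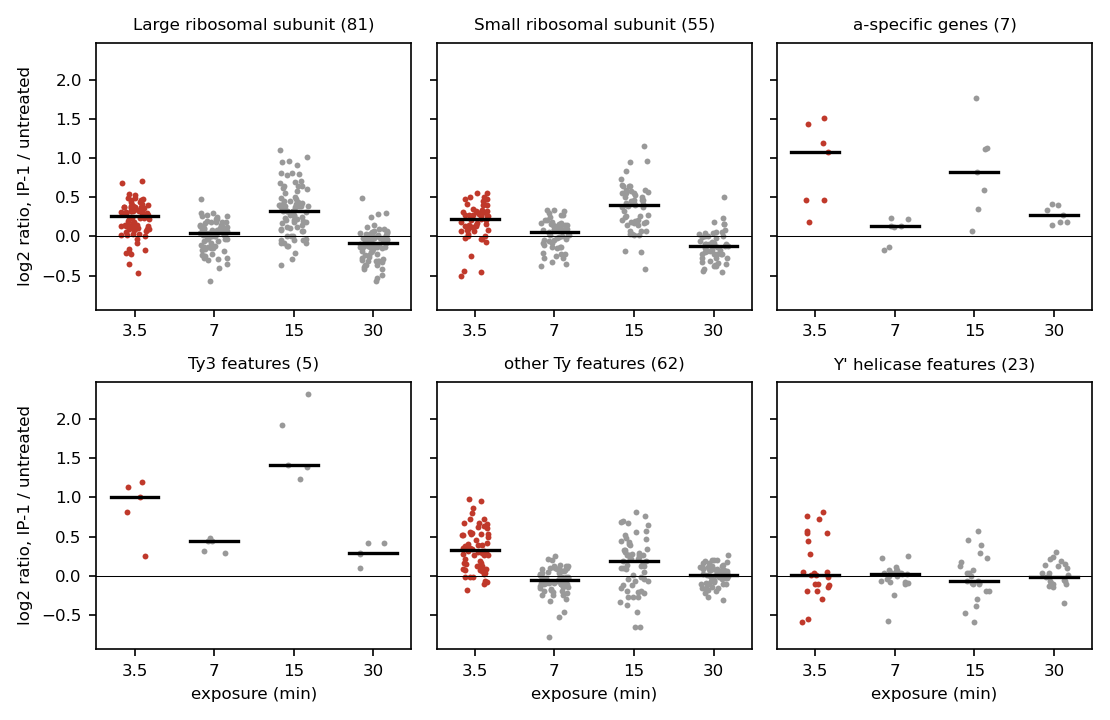
Log2 ratio of IP-1 over untreated for each feature of 6 groups on the arrays of 3.5, 7, 15 and 30 min exposure, with 1 array per exposure. Red points are the 3.5 min array, grey points the others, bars are medians and numbers in brackets count the features. Large and small ribosomal subunit medians are 0.26 and 0.22 at 3.5 min, and Ty3 and a-specific features are highest at 3.5 and 15 min.

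The sign was also followed over the arrays for all genes past 0.5. Of the 108 genes lower by at least 0.5 at 3.5 min, 101 had ratios below 0 on all 4 arrays, with medians of -0.47, -0.64 and -0.28 at 7, 15 and 30 min. Of the 108 higher genes 70 were above 0 on all 4, with medians of 0.17, 0.59 and 0.17. The difference between these shares was not tested. The share of all features with 1 sign on all 4 arrays is not given here, so these counts have no background beside them. Over all features the 3.5 min ratios correlated at 0.499, 0.57 and 0.404 with those at 7, 15 and 30 min. By brightness, 69 of the higher and 70 of the lower genes belonged to the brightest tercile of the features, and 6 and 3 to the dimmest. The normexp offset of 50 draws dim ratios toward 0, so these counts cannot be read as a trait of the genes.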

How the data were processed

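Total RNA of IP-1 and untreated cultures was copied into Cy5 and Cy3 cDNA, per the labels' protocols. The deposited scanner tables list for every spot a mean raw intensity and a local background with its SD, per the file headers. Values of the deposited series matrix are uncentred log10 ratios of the raw Cy5 to the raw Cy3 intensity, as a comparison with the scanner tables shows. The scanner software and the build behind the probes are not given in the sources used. From the intensities, background was corrected with normexp (offset 50, which draws dim ratios toward 0), each array was normalised by global loess (span 0.3, 4 iterations), and the 2 spots were averaged. A feature was kept if both spots exceeded background by 2 background SDs in 1 channel on all 4 arrays. This is lenient, since 79.7% of the 320 empty spots passed in Cy3 and 68.1% in Cy5, so signals were also set against the 95th percentile of the empty spots. Names were updated by locus tag through the R64 table (5763 features matched, 573 did not), 275 features carry several names, and 86 end in -r, a suffix that is not explained.

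R 4.3.3 with limma 3.58.1 (lmFit and eBayes, two-sided, adjusted p under 0.05) and Python 3.11.15 were used, and the fits were tested on simulated data. The members and the 53 gene lists were chosen with earlier results of these data known. Named are the genes with both spots past 1, the mating genes and the deleted genes, list members past 0.5 (up to 4 in each direction) or at the list's ends, the 10 highest and lowest in no list, genes called by limma, and a few others said to be chosen after their values were seen. CLN1, CLN2, CLN3 and PDI1 are given for context. Alternatives changed the background correction, the normalisation, the filter, the spots, the arrays in the fit and the eBayes settings. Promoter sequences were not used here.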

Additional observations from a re-analysis of the deposited data

Results flagged for a closer look

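The 32 features named after Arabidopsis genes lie outside the comparisons of yeast genes, and 3 of them had both spots at -0.5 or less at 3.5 min, with none at 0.5 or more. Their ratios ran from -0.72 to 0.35 with a median of -0.35, and 31 exceeded the limit of the empty spots in a channel on both spots. At 7, 15 and 30 min the numbers at -0.5 or less were 4, 3 and 8. The sources used here do not say what was added for these features.

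CHO1, the phosphatidylserine synthase gene, had a ratio of 0.56 at 3.5 min (0.58 and 0.54 on its spots) and -0.91 at 15 min, past 0.5 in opposite directions. No test of the difference between these 2 arrays was made, and in limma the difference between 3.5 min and the mean of the other 3 arrays was 0.92 with an adjusted p of 0.99.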

How the results depend on the processing

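The counts of genes past the limits kept within 1.5 times of their reported values with no filter and with a stricter filter. Past 1, the numbers higher and lower were 6 and 22 in the deposited ratios and 35 and 12 with plain background subtraction, and 5 were lower with median centring. Past 0.5, they were 33 and 529 in the deposited ratios and 219 and 275 with subtraction, and 186 were lower with median centring. Leaving out 1 of the 2 spots gave 23 to 28 genes higher and 4 to 5 lower past 1, and 149 to 151 higher and 171 to 172 lower past 0.5, since only 1 spot then has to pass. With only features of 1 name and no suffix, a choice made after seeing the data, 71 genes were higher past 0.5. The test of the mean of the 7, 15 and 30 min arrays called 22 features with print-tip loess, 2 in the deposited ratios, 3 with subtraction, 0 with no background correction, 52 with a trended and robust eBayes, and 0 to 298 when leaving out 1 array in turn. The test of 3.5 min against the other arrays called 1 feature, ULA1, with median centring, with print-tip loess and with the trended eBayes, and 0 to 9 when leaving out 1 array in turn. The cause of these changes was not tested. No paired analysis was possible because replicates 1 and 2 are the 2 spots of 1 array, each ratio is already taken within a spot, and the values at 3.5 min come from no test. At 3.5 min, 4944 of the 6152 features exceeded the empty-spot limit in both channels on both spots, and below it a ratio has little precision.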
